A study of Mus musculus with 12 samples.

Results

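The cytosolic ribosome, which makes nearly all proteins of the cell, holds one set of proteins in its small subunit, named Rps, and another in its large subunit, named Rpl. The genes were chosen by symbol: Rpl or Rps with a number, plus Rplp0, Rplp1, Rplp2 and Rpsa, without rows named as pseudogenes ("-ps") and without the Rps6k kinases, and with at least 10 reads summed over the 12 libraries. The rule gave 86 of the 22607 genes in the count table, 51 with large subunit names and 35 with small subunit names. By the GENCODE annotation, 82 of them are protein coding and 4 (Rpl6l, Rps3a2, Rps3a3 and Rps4l) are processed pseudogenes that the symbol rule keeps.

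Reads were counted per gene in the tibialis anterior, a fast hindlimb muscle, of male C57BL/6 mice aged 13 weeks. The 12 libraries form 4 groups of 3: muscle carrying a Crtc2 expression vector after 3 rounds of alternate day fasting (ADF Crtc2), muscle carrying a GFP vector after the same fasting (ADF GFP), and the corresponding ad libitum fed muscles (Fed Crtc2 and Fed GFP). GFP muscle thus also carries a vector, and no untransduced muscle was analysed here. Crtc2 is a coactivator of the transcription factor Creb1, and the study asks how the pair acts in muscle during intermittent fasting. The labels do not say which fibres or cells took up the vector. Nor do they state how many animals the libraries stand for, and the p-values cover the spread between libraries alone.

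Ribosomal protein genes are transcribed by RNA polymerase II and their products are made in nearly equal numbers. Most of their mRNAs are abundant and short in most tissues. In mammals their mRNAs start with a C followed by a run of pyrimidines, the 5′ terminal oligopyrimidine or TOP tract. Through this tract the kinase complex mTORC1, acting on the RNA-binding protein Larp1, sets how much of the mRNA is translated and how stable it is. Skeletal muscle has a large subunit protein of its own, Rpl3l, which takes the place of Rpl3.

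The start regions of 8 of these genes are printed because the tract lies there: 4 were lower after fasting in both vector groups (Rpl38, Rpl13a, Rps21 and Rps24) and 4 were not past the threshold in either (Rplp2, Rps9, Rps6 and Rpl3l). They were picked after their values were seen. Each line gives 70 bases, 50 before the annotated start and 20 from it on, from RefSeq promoters of build GRCm38.p6, with capitals for a pyrimidine run of at least 5 bases that begins with C within 5 bases of the start.
Rpl38, chr11:114668530-114668599, plus strand: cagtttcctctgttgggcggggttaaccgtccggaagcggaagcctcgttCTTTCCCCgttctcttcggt
Rpl13a, chr7:45128726-45128795, minus strand: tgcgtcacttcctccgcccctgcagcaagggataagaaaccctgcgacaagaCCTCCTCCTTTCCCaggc
Rps21, chr2:180257329-180257398, plus strand: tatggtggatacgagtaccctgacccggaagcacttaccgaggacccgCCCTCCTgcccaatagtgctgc
Rps24, chr14:24490628-24490697, plus strand: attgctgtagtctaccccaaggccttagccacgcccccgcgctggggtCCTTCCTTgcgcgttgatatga
Rplp2, chr7:141447601-141447670, plus strand: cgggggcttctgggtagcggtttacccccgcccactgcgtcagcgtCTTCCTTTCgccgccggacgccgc
Rps9, chr7:3703991-3704060, plus strand: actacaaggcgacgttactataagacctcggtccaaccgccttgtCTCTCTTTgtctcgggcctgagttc
Rps6, chr4:86857348-86857417, minus strand: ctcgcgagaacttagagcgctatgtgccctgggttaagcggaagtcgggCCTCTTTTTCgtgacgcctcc
Rpl3l, chr17:24727776-24727845, plus strand: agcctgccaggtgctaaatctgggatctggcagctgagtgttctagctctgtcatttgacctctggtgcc

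Of the 8 windows, 7 held such a run, among them those of 3 of the 4 genes that were not lower, and the Rpl3l window did not. The genes Rpl26, Rpl41, Rps15 and Rps19, also lower in both vector groups, had no such run and are not printed. A promoter was matched for 62 of the 86 genes. The run stood at the start of 28 of these 62 (45.2%), against 18.5% of all 27025 promoters of the same length. Over the 61 of them that were tested, the median log2 fold change of ADF over fed was -0.54 with the run and -0.37 without it in Crtc2 muscle, and -0.61 with it and -0.50 without it in GFP muscle. Genes with and without the run at the annotated start were thus both on the lower side after fasting. Only the first start listed for each gene was read, so a run at another start of the gene was missed.

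Other motifs, 4 in number, were searched on both strands of the 300 bases from 250 before to 50 after the start. The short form of the cAMP response element, TGACG, the kind of site that Creb1 binds, was in 30 of the 62 promoters (48.4%), against 21.02% of all promoters. Among the 19 promoters of genes called lower after fasting in at least 1 vector group, 5 held it (26.3%), and among the other 43 genes 25 did (58.1%). The ETS core CCGGAAG was in 40.3% of the 62 and 9.12% of all promoters, AAGATGG in 14.5% and 6.48%, and TATAAA in 9.68% and 14.2%. The other motifs were also uneven between genes called lower and the others. The ETS core was in 52.6% and 34.9%, AAGATGG in 10.5% and 16.3%, and TATAAA in 5.26% and 11.6%. The pyrimidine run was in 57.9% and 39.5%. Under ADF, the median log2 fold change of Crtc2 over GFP muscle was 0.14 for genes with TGACG and 0.08 for those without. In fed muscle it was 0.123 with TGACG and 0.117 without. None of these differences was tested.

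The libraries held 24232450 to 34610417 counts each. The vector was visible in the counts of Crtc2 itself, which stood at 42.8, 40.5 and 31.4 CPM (counts scaled to library size by the trimmed mean of M values, TMM) in ADF Crtc2 muscle and 19.7, 16.1 and 23.6 CPM in ADF GFP muscle. In fed muscle it was at 64.8, 58.2 and 77.9 CPM with the Crtc2 vector and 29.2, 17.3 and 24.0 CPM with GFP. The groups did not overlap in either diet, though neither difference was past the threshold in edgeR's quasi-likelihood test (log2 fold change 0.95 ± 0.27 SE, adjusted p = 0.127, under ADF; 1.51 ± 0.28, adjusted p = 0.134, in fed muscle). The 9 myofibre markers (Acta1, Ckm, Myh4 and others) summed to 102642 to 184529 CPM over the 12 libraries, so the tissue label fits its defining genes.

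Ribosomal protein mRNAs took a smaller share of all counts after fasting. They held 1.04, 0.955 and 1.01% of the counts in the ADF Crtc2 libraries, and 0.979, 0.992 and 1.09% in the ADF GFP libraries. They held 1.45, 1.47 and 1.64% in the Fed Crtc2 libraries, and 1.505, 1.44 and 1.46% in the Fed GFP libraries. No ADF library reached the lowest fed one, whichever the vector. The log2 ratio of the mean shares, ADF over fed, was -0.60 in Crtc2 muscle and -0.52 in GFP muscle. Between vectors it was -0.03 under ADF and 0.05 in fed muscle, Crtc2 over GFP.

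**Figure D1:**
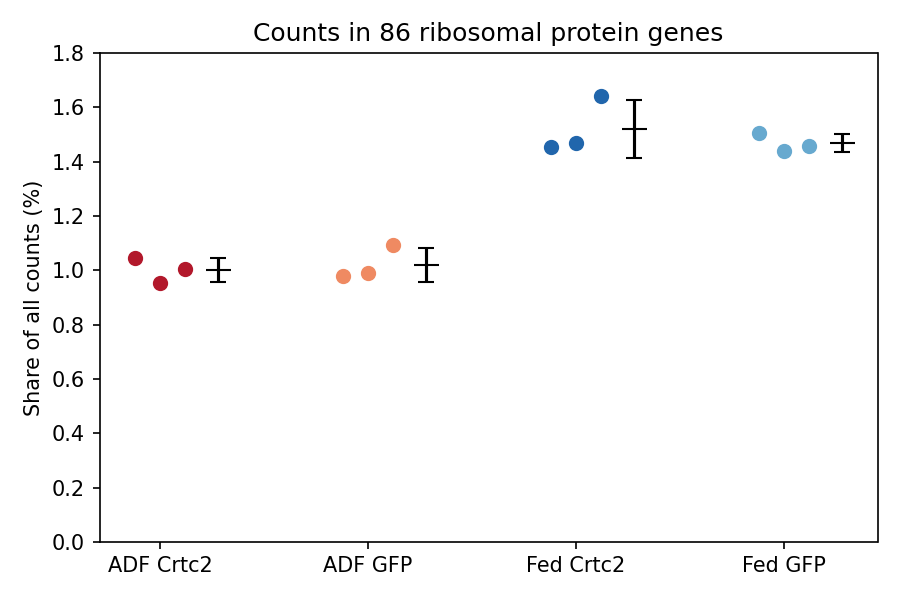
Share of all counts (percent) in the 86 ribosomal protein genes, 1 point per library, with the mean and SD of 3 libraries in black. The ADF libraries sit between 0.955 and 1.09%, the fed libraries between 1.44 and 1.64%.

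The share depends on what fills the rest of a library. The union of the 10 most abundant genes of each library is 13 genes, and the 10 took 20.8 to 29.5% of a library. With those 13 genes left out of the total, the share was 1.32 to 1.43% in ADF Crtc2 and 1.30 to 1.47% in ADF GFP libraries, against 1.94 to 2.45% in Fed Crtc2 and 1.96 to 2.17% in Fed GFP libraries. The 231 rows named as ribosomal protein pseudogenes moved the same way, with 0.0584 to 0.0674% of the counts in ADF Crtc2 and 0.0612 to 0.0740% in ADF GFP libraries, against 0.106 to 0.109% in Fed Crtc2 and 0.0979 to 0.109% in Fed GFP libraries. How reads that match a gene and its pseudogene copies were assigned is not given in the sources used here, so single genes with many copies are uncertain. Scaled by TMM in place of library totals, the log2 ratio of ADF over fed was -0.32 in Crtc2 muscle and -0.42 in GFP muscle, and that of Crtc2 over GFP under ADF was 0.17, with the sign opposite to that of the share.

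Markers of several cell types moved with diet in Crtc2 muscle without overlap, beside the fall in share. Myofibre markers summed to 163132 to 184142 CPM in ADF Crtc2 and 102642 to 161916 CPM in Fed Crtc2 libraries. The 5 endothelial markers summed to 194 to 247 CPM in ADF Crtc2 and 299 to 423 CPM in Fed Crtc2 libraries, and Esam and Kdr were called lower. The 4 markers of dividing cells summed to 0 to 2.49 CPM in ADF Crtc2 and 4.61 to 39.5 CPM in Fed Crtc2 libraries. The 8 markers of T and NK cells gave 3.59 to 4.83 CPM in ADF Crtc2 and 8.75 to 76.1 CPM in Fed Crtc2 libraries, and the 5 adipocyte markers 2.98 to 17.8 CPM in ADF Crtc2 and 0.703 to 2.78 CPM in Fed Crtc2 libraries. In GFP muscle these 5 sums overlapped between the diets, and the part of these cells in the values of the ribosomal protein genes was not tested. In bulk muscle, fewer cells of a type and less RNA per cell cannot be told apart.

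Per gene, 85 of the 86 passed edgeR's filter on low counts; the other, Rpl39l, is described with its paralogue below. In Crtc2 muscle, 19 of the 85 were lower after ADF and 0 were higher (adjusted p under 0.05), where 4.68% of all 16007 genes tested were lower and 6.3% higher. In GFP muscle, 20 were lower and 0 higher, where 3.06% of all genes were lower and 4.06% higher. The members' share called lower was 22.4% in Crtc2 muscle and 23.5% in GFP muscle. At an unadjusted p under 0.05, 0 members were higher in either vector group and 38 and 46 were lower in Crtc2 and GFP muscle. Of all 16007 genes, 3900 and 3166 had such a p in either direction. DESeq2 called 0 members higher and 28 and 35 lower, where it called 2811 and 1898 genes in either direction. The median log2 fold change of the 85 was -0.48 in Crtc2 muscle, where that of all genes was -0.13, and -0.54 in GFP muscle, where that of all genes was -0.01.

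The shift ran through most of the set. The fold change was negative for 75 of 85 genes in Crtc2 muscle and 77 of 85 in GFP muscle, and for 70 in both. Of all 16007 genes tested, 8843 were negative in Crtc2 muscle and 8060 in GFP muscle. Of the 606 other genes of at most 1000 bases with at least 10 CPM, 427 and 505 were negative. In Crtc2 muscle, 37 members had all 3 ADF libraries below all 3 fed ones, 43.5% of those tested, against 15.7% of all genes. In GFP muscle, 42 did, 49.4%, against 11.3% of all genes. For 23 members, all 6 ADF libraries lay below all 6 fed ones, and for 0 above, where 4.07% of all genes had all 6 below. Large subunit genes had medians of -0.50 in Crtc2 muscle and -0.51 in GFP muscle, with 11 and 9 of 50 called lower. Small subunit genes had medians of -0.38 and -0.56, with 8 and 11 of 35 called lower.

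**Figure D2:**
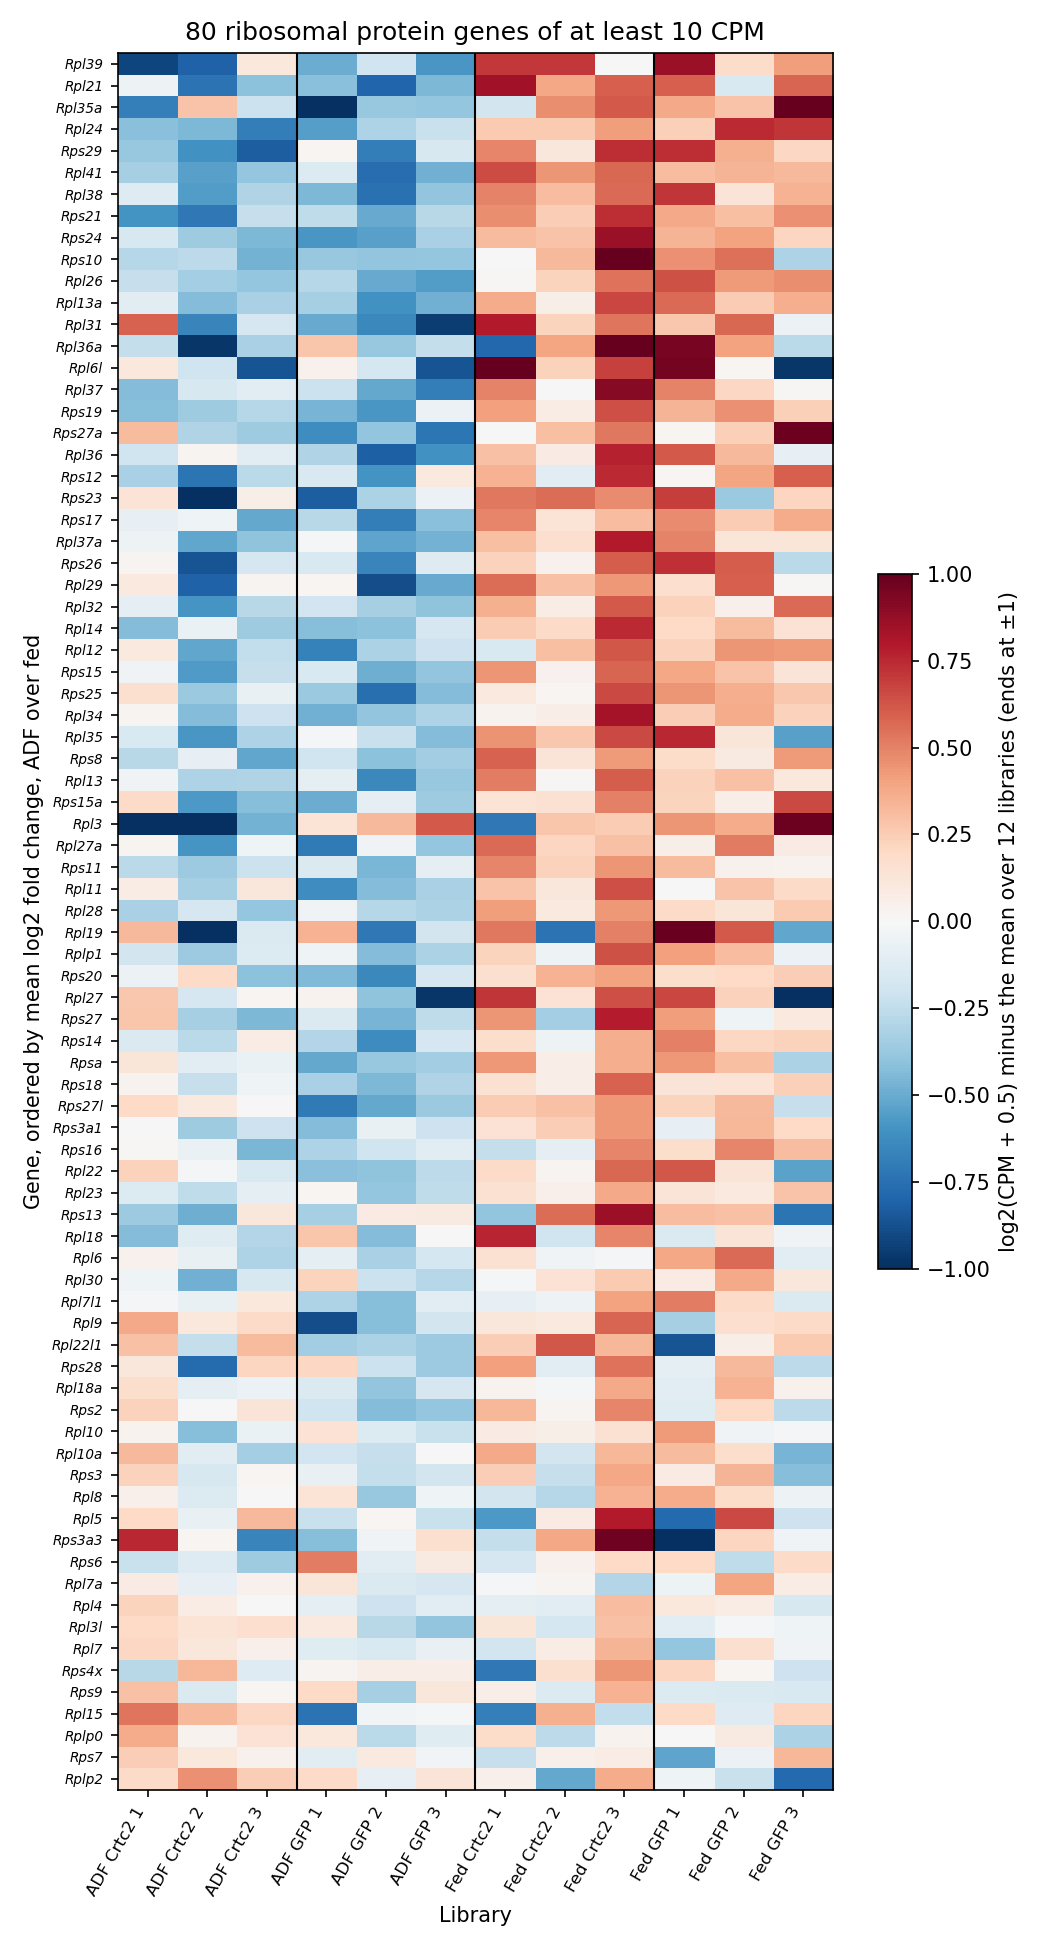
Heat map of 80 ribosomal protein genes that averaged 10 CPM or more (rows, ordered by their mean log2 fold change of ADF over fed) in the 12 libraries (columns). Colour is log2(CPM + 0.5) minus the gene's mean over the libraries; most rows are blue in the 6 ADF columns and red in the 6 fed columns, and rows at the foot, such as Rplp2 and Rplp0, are not.

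Transcript length moved with these values. The members' annotated transcripts have a median of 830 bases, against 2650 for all genes tested, and 60 of the 86 are at most 1000 bases long. The 606 other genes of at most 1000 bases that averaged 10 CPM or more had a median log2 fold change of -0.24 in Crtc2 muscle and -0.54 in GFP muscle. Of these short genes, 8.42% were lower in Crtc2 muscle and 19.5% in GFP muscle. The 55 members of that length and level were lower in 14 cases (25.5%) in Crtc2 muscle and in 15 (27.3%) in GFP muscle. All 59 tested members of at most 1000 bases had medians of -0.51 in Crtc2 muscle and -0.56 in GFP muscle, so that in GFP muscle they stood close to other short genes. The part of length in the result was not tested beyond the setting that follows.

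**Figure D3:**
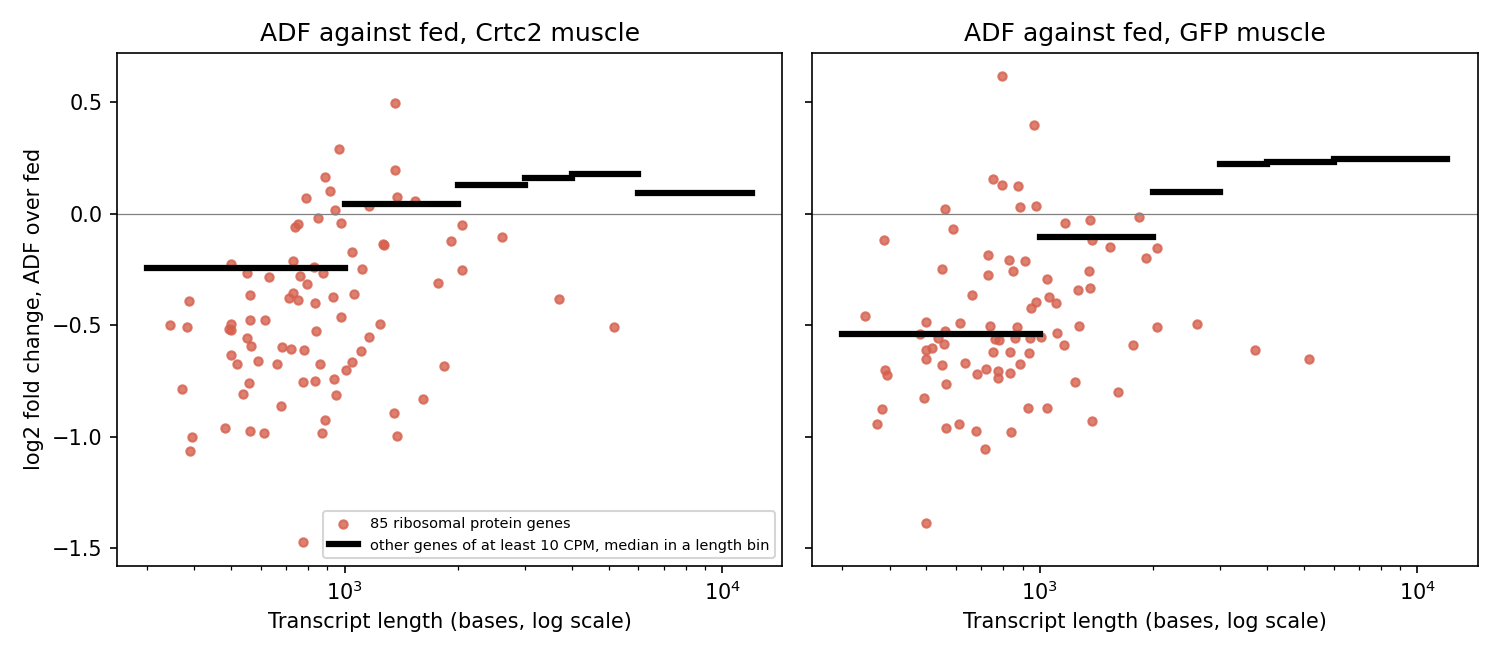
log2 fold change of ADF over fed against annotated transcript length (bases, log scale) for the 85 ribosomal protein genes (points), in Crtc2 muscle (left) and GFP muscle (right). Black bars give the median of other genes with at least 10 CPM in 6 length bins; in the shortest bin it is -0.24 in Crtc2 muscle and -0.54 in GFP muscle.

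When a curve of deviation against length was taken out of each library, a setting added after seeing the data, 8 members were lower in Crtc2 muscle, where 5.24% of all genes were lower. Rpl13a, Rpl14, Rpl21, Rpl28, Rpl41, Rps21 and Rps24 were called without the offset too, and Rpl18 with it alone (adjusted p = 0.0664 without it, edgeR). In GFP muscle 4 were lower (Rpl13a, Rps20 and Rps24, and Rps15a with the offset alone), where 2.55% of all genes were, and 2 were higher (Rplp2 by 0.75 and Rps9 by 0.61 on the log2 scale). The medians moved to -0.25 in Crtc2 muscle and -0.12 in GFP muscle. Rps15a and Rps20 have unusually long annotated transcripts (5154.5 and 3706 bases), and the offset they get follows from that length.

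Of the members, 9 were called lower in both vector groups, Rpl13a, Rpl21, Rpl26, Rpl38, Rpl41, Rps15, Rps19, Rps21 and Rps24, which is 47.4% of the calls in Crtc2 muscle and 45% of those in GFP muscle. Another 10 were called in Crtc2 muscle alone and 11 in GFP muscle alone. The test of the difference, the diet by vector interaction, was past the threshold for 0 of 85 members (edgeR, 0 at an unadjusted p under 0.05, 0 by DESeq2) and for 0% of all genes tested, so no member was shown to respond differently with Crtc2. Across the 85, the fold changes in both vector groups, which share no library, had a Spearman correlation of 0.60.

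In the 40S subunit, Rps21, a protein of its solvent side, fell most clearly in Crtc2 muscle. It stood at 103, 95.5 and 134 CPM in ADF Crtc2 and 131, 110.4 and 129 CPM in ADF GFP muscle, against 217, 186 and 261 CPM in Fed Crtc2 and 204, 193 and 216 CPM in Fed GFP muscle. Its log2 fold change was -0.999 ± 0.19 (SE, adjusted p = 0.00102, edgeR) in Crtc2 muscle and -0.72 ± 0.19 (adjusted p = 0.0183) in GFP muscle, and all 6 ADF libraries lay under all 6 fed ones. In GFP muscle the call was lost with the length offset (-0.032, adjusted p = 0.97) and without ADF GFP replicate 2 or 3 or Fed GFP replicate 3.

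Rps24, which takes part in the maturation of 18S rRNA and is one of the genes mutated in Diamond-Blackfan anaemia in humans, followed the same order. It had 153, 133 and 125 CPM in ADF Crtc2 and 114, 117 and 136 CPM in ADF GFP muscle, against 212, 208 and 310.0 CPM in Fed Crtc2 and 216, 226 and 198 CPM in Fed GFP muscle. The changes were -0.83 ± 0.19 (adjusted p = 0.00484, edgeR) and -0.80 ± 0.19 (adjusted p = 0.00943), again without overlap between the diets. Rps24 was lower in both vector groups with the length offset too, and its GFP call was lost without ADF GFP replicate 1 (adjusted p = 0.0503) or 2 (adjusted p = 0.0517).

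Rps29, a small zinc-binding protein, had 60.8, 51.8 and 44.5 CPM in ADF Crtc2 and 79.9, 48.7 and 70.8 CPM in ADF GFP muscle, against 111, 85.6 and 132 CPM in Fed Crtc2 and 132, 101 and 91.4 CPM in Fed GFP muscle. The diets did not overlap. The fall was past the threshold in Crtc2 muscle (-1.06 ± 0.23, adjusted p = 0.00429, edgeR) and not in GFP muscle (-0.70 ± 0.23, adjusted p = 0.0753). Rps10, a protein of the 40S head, showed wider fed values: 60.6, 61.7 and 53.3 CPM in ADF Crtc2 and 56.8, 56.2 and 56.5 CPM in ADF GFP muscle, against 73.8, 93.0 and 167 CPM in Fed Crtc2 and 102, 109 and 59.7 CPM in Fed GFP muscle. Its call in Crtc2 muscle (-0.92 ± 0.27, adjusted p = 0.027) was lost without Fed Crtc2 replicate 3 (adjusted p = 0.26) and without each ADF Crtc2 library.

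Rps27a, made as a fusion with ubiquitin, was called in GFP muscle alone. It had 41.1, 48.0 and 38.1 CPM in ADF GFP and 64.3, 75.0 and 125 CPM in Fed GFP muscle (-1.06 ± 0.26, adjusted p = 0.0152, edgeR). In Crtc2 muscle it had 79.1, 51.2 and 49.4 CPM under ADF, overlapping 63.6, 78.0 and 91.7 CPM in the fed libraries. Rps27a was no longer past edgeR's threshold without Fed GFP replicate 3 (adjusted p = 0.124) or without ADF GFP replicate 1 or 3 (adjusted p = 0.0617 and 0.0739). In GFP muscle no ADF library reached a fed one.

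In the 60S subunit, Rpl41, the smallest ribosomal protein, stood at 107, 93.1 and 104 CPM in ADF Crtc2 and 123, 79.9 and 97.2 CPM in ADF GFP muscle, against 213, 184 and 202 CPM in Fed Crtc2 and 168, 172 and 170.1 CPM in Fed GFP muscle. It fell by 0.98 ± 0.18 on the log2 scale in Crtc2 muscle (adjusted p = 0.00114, edgeR) and by 0.76 ± 0.18 in GFP muscle (adjusted p = 0.0124). No ADF library reached a fed one. The GFP call was lost with the length offset (-0.20, adjusted p = 0.609) and without ADF GFP replicate 2 or 3.

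Rpl38, whose loss in mice disturbs the patterning of the skeleton, stood at 76.0, 56.4 and 67.4 CPM in ADF Crtc2 and 60.7, 49.4 and 63.2 CPM in ADF GFP muscle, against 117, 103 and 124 CPM in Fed Crtc2 and 137, 91.0 and 106 CPM in Fed GFP muscle. The changes were -0.78 ± 0.21 (adjusted p = 0.0161, edgeR) and -0.94 ± 0.21 (adjusted p = 0.00651), with the highest ADF library below the lowest fed one. With the length offset they were -0.40 and -0.24 and neither was past the threshold; at 371 bases its transcript is among the shortest. The Crtc2 call was also lost without ADF Crtc2 replicate 2 or 3 or Fed Crtc2 replicate 3, and the GFP call without ADF GFP replicate 2.

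Rpl26, at the polypeptide exit side of the large subunit, was the most clearly lower member in GFP muscle. It had 162, 139 and 134 CPM in ADF GFP and 307, 265 and 272 CPM in Fed GFP muscle (-0.96 ± 0.18, adjusted p = 0.00145, edgeR). In Crtc2 muscle the values were 168, 156 and 151 CPM under ADF and 198, 230.1 and 288 CPM in the fed libraries (-0.59 ± 0.18, adjusted p = 0.0307). The Crtc2 call held in 7 of 12 fits with a library left out, and was lost without any 1 of the ADF Crtc2 libraries or Fed Crtc2 replicate 2 or 3. The GFP call held in all 12 but not with the length offset (-0.39, adjusted p = 0.218). In GFP muscle a call also held in all 12 for Rpl13a, known in human cells also for a role in translational control by interferon (-0.87 ± 0.18, adjusted p = 0.00371).

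Rpl21 and Rpl39 showed similar sizes with wider spread. Rpl21 had 96.0, 59.5 and 74.5 CPM in ADF Crtc2 and 74.5, 57.3 and 72.8 CPM in ADF GFP muscle, against 178, 130.0 and 150.4 CPM in Fed Crtc2 and 151, 89.6 and 149 CPM in Fed GFP muscle. The diets did not overlap within either vector. It was lower in both (-0.995 ± 0.23, adjusted p = 0.00663, and -0.93 ± 0.23, adjusted p = 0.0154, edgeR). The GFP call was lost with the length offset (adjusted p = 0.0508) and without ADF GFP replicate 2 or Fed GFP replicate 1 or 3, and the Crtc2 call without ADF Crtc2 replicate 2. Rpl39, part of the wall of the exit tunnel, had 18.6, 20.1 and 38.3 CPM in ADF Crtc2 and 58.3, 58.2 and 35.7 CPM in Fed Crtc2 muscle, so its groups overlapped although it was called (-0.98 ± 0.31, adjusted p = 0.0447, edgeR); the call held in 5 of 12 fits with a library left out. It was the only call in either vector group whose libraries overlapped.

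Among large subunit genes called in GFP muscle, Rpl35a and Rpl31 had the largest falls. Rpl35a had 15.3, 32.8 and 32.6 CPM in ADF GFP and 55.6, 52.1 and 103 CPM in Fed GFP muscle (-1.39 ± 0.34, adjusted p = 0.0145, edgeR). That call was lost without Fed GFP replicate 3 (adjusted p = 0.105) or ADF GFP replicate 1 (adjusted p = 0.0892). Rpl31 had 70.5, 63.9 and 51.7 CPM in ADF GFP and 121, 149.7 and 96.2 CPM in Fed GFP muscle (-0.98 ± 0.26, adjusted p = 0.0255). The Rpl31 call was lost without ADF GFP replicate 2 or 3 or Fed GFP replicate 1 or 2 (adjusted p = 0.0612 to 0.124), and both calls with the length offset. In GFP muscle the diets did not overlap for either gene. In Crtc2 muscle neither was past the threshold.

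**Figure D4:**
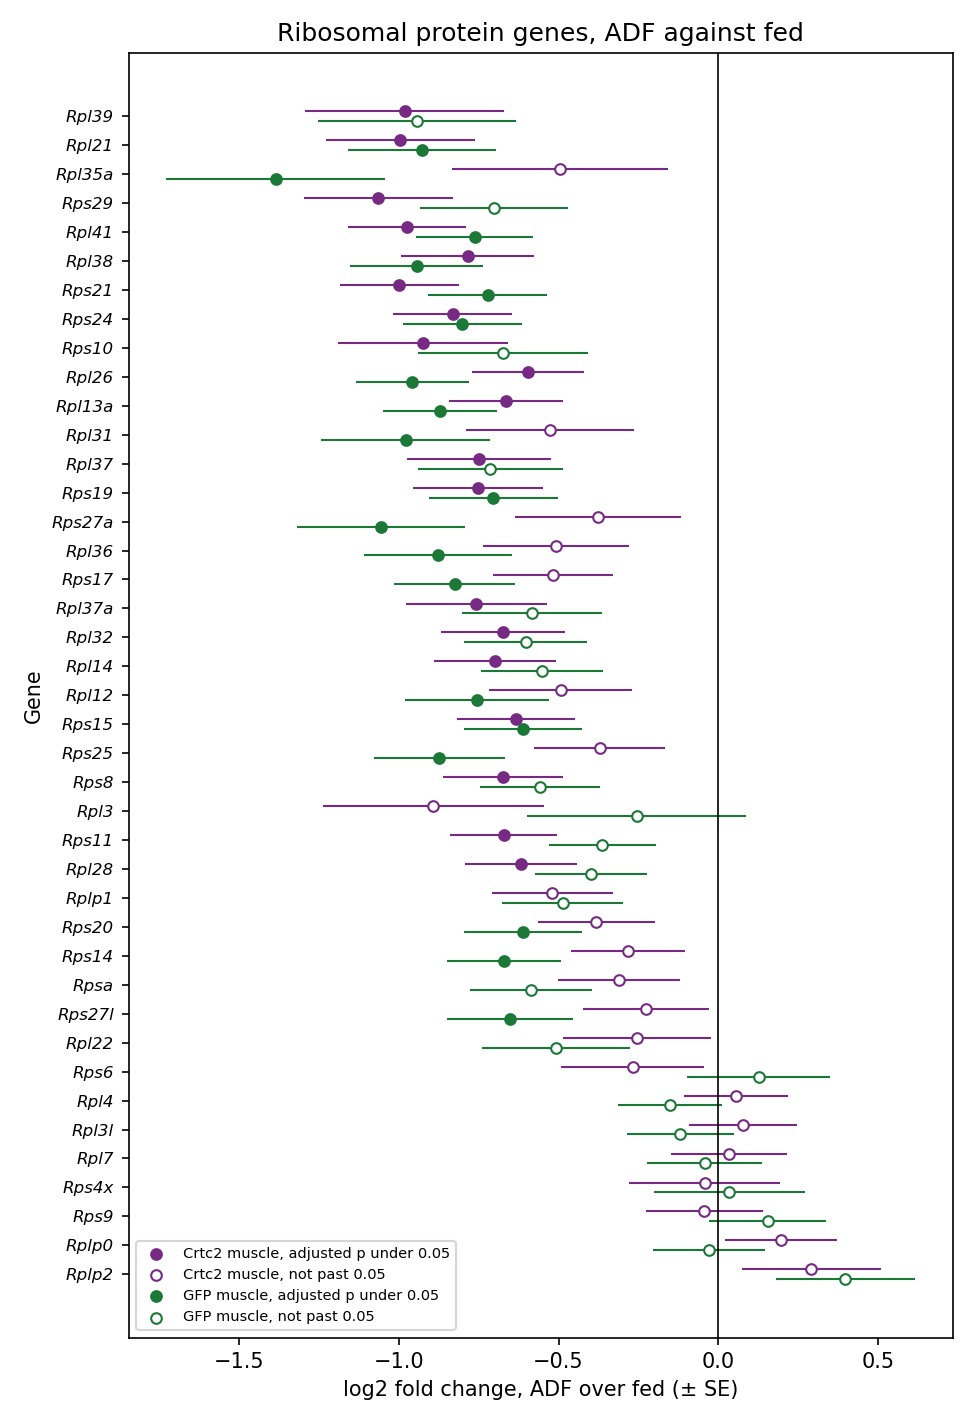
log2 fold change of ADF over fed (± SE, edgeR, 3 libraries a group) in Crtc2 muscle (purple) and GFP muscle (green) for 29 members called lower in at least 1 vector group and 12 others named for comparison. Filled points are past an adjusted p of 0.05; all filled points lie left of 0, and Rplp2, Rplp0, Rps9 and Rps4x lie near or right of it.

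The calls rested on 3 libraries a group. Leaving out 1 library at a time gave 7 to 21 members lower in Crtc2 muscle and 4 to 21 in GFP muscle. In Crtc2 muscle the count was 12, 7 and 7 without ADF Crtc2 replicates 1, 2 and 3 and 7 without Fed Crtc2 replicate 3. In GFP muscle it was 10, 4 and 11 without ADF GFP replicates 1, 2 and 3 and 10 without Fed GFP replicate 1. Rpl41, Rps21, Rps24 and Rps29 stayed lower in Crtc2 muscle in all 12 such fits, and Rpl13a and Rpl26 in GFP muscle.

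Some abundant members did not follow. The P stalk, made of Rplp0, Rplp1 and Rplp2, carries the site where elongation factors dock. Rplp2 had 212, 255 and 219 CPM in ADF Crtc2 and 211, 175 and 202 CPM in ADF GFP muscle, against 191, 129.8 and 239.8 CPM in Fed Crtc2 and 180.0, 159 and 108 CPM in Fed GFP muscle. The diets overlapped with either vector, and the change was not past the threshold in either (0.29 ± 0.22 and 0.40 ± 0.22, adjusted p = 0.467 and 0.328, edgeR).

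Rplp0, often used as a reference gene, had 722, 569.9 and 617 CPM in ADF Crtc2 and 598, 461 and 511 CPM in ADF GFP muscle, against 633, 465 and 569 CPM in Fed Crtc2 and 559, 594 and 448 CPM in Fed GFP muscle. Its log2 fold changes were 0.20 ± 0.18 and -0.03 ± 0.18. Rplp1, the most abundant member per length (837 CPM per kilobase on average), had 359, 317 and 371 CPM in ADF Crtc2 and 395, 302 and 328 CPM in ADF GFP muscle, against 476, 394 and 632 CPM in Fed Crtc2 and 541, 504 and 390.4 CPM in Fed GFP muscle. Its changes of -0.52 ± 0.19 and -0.49 ± 0.19 missed the threshold (adjusted p = 0.0864 and 0.145, edgeR). The 3 stalk mRNAs thus stood on different sides, and the difference between them was not tested.

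Rpl4, a core protein of the exit tunnel, was nearly level, at 872, 787 and 745 CPM in ADF Crtc2 and 700.4, 645 and 688 CPM in ADF GFP muscle, against 697, 689 and 926 CPM in Fed Crtc2 and 802, 788 and 667 CPM in Fed GFP muscle. The diets overlapped, and the log2 fold changes were 0.06 ± 0.16 and -0.15 ± 0.16. Rps6, the substrate of the S6 kinases downstream of mTORC1, had 54.3, 58.0 and 49.5 CPM in ADF Crtc2 and 90.8, 58.8 and 67.7 CPM in ADF GFP muscle, against 56.4, 65.4 and 72.9 CPM in Fed Crtc2 and 73.1, 53.2 and 72.7 CPM in Fed GFP muscle (-0.27 ± 0.22 and 0.13 ± 0.22). Rpsa, also known as a laminin receptor, was at 251, 215 and 220.4 CPM in ADF Crtc2 and 162, 178 and 182 CPM in ADF GFP muscle, against 313, 242 and 298 CPM in Fed Crtc2 and 313, 286 and 186 CPM in Fed GFP muscle. Its falls of 0.31 ± 0.19 and 0.59 ± 0.19 missed the threshold (adjusted p = 0.338 and 0.0691, edgeR).

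Per kilobase of transcript, Rpl3l was among the most abundant members, at 612 ± 12.7 CPM per kilobase in ADF Crtc2, 482 ± 89.7 in ADF GFP, 580.1 ± 92.9 in Fed Crtc2 and 524 ± 19.2 in Fed GFP muscle (SD, n = 3). Rpl3 was at 9.05 ± 2.53 in ADF Crtc2, 21.8 ± 3.74 in ADF GFP, 16.8 ± 5.84 in Fed Crtc2 and 26.004 ± 6.40 in Fed GFP muscle on the same scale. The muscle paralogue exceeded the general one in each library.

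Rpl3 (chr15:80077791-80091868, GRCm38; Rpl3l is at chr17:24727820-24736143) was lowest in ADF Crtc2 muscle, at 10.4, 10.1 and 16.2 CPM, against 25.0, 28.4 and 34.9 CPM in ADF GFP muscle. In fed muscle it was at 13.6, 27.5 and 27.0 CPM with Crtc2, against 30.8, 29.5 and 45.1 CPM with GFP. Under ADF the vectors did not overlap, and edgeR gave a log2 fold change of -1.27 ± 0.35 with an adjusted p of 0.1003, short of the threshold. The adjusted p was 0.0119 by DESeq2 and 0.0408 with only these groups in the fit. Rpl3l in the same comparison was at 859, 824 and 841 CPM, against 803, 618 and 569 CPM (0.34 ± 0.17, adjusted p = 0.449).

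The ratio of Rpl3l to Rpl3 counts was 82.1, 81.7 and 52.0 in ADF Crtc2 and 32.1, 21.8 and 16.3 in ADF GFP muscle, against 59.7, 24.1 and 33.9 in Fed Crtc2 and 22.4, 25.2 and 16.1 in Fed GFP muscle. Within diet, the log2 ratio was higher with Crtc2 than with GFP by 1.23 on average (exact permutation test, two-sided, p = 0.01, adjusted over 2 tests 0.02). Within vector, it was higher under ADF than fed by 0.53 (exact permutation test, two-sided, p = 0.13, adjusted 0.13). With 1 library left out at a time, the Crtc2 difference was 1.05 to 1.38 and its exact permutation p 0.005 to 0.015. In fed muscle the ratios overlapped between the vectors. The ratio of no other paralogue pair was tested, and the adjustment does not cover the choice of this pair. The pseudogene row Rpl3-ps1, which may take reads of Rpl3, was at 12.6, 11.9 and 13.8 CPM in ADF Crtc2 and 14.2, 21.7 and 32.1 CPM in ADF GFP muscle.

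**Figure D5:**
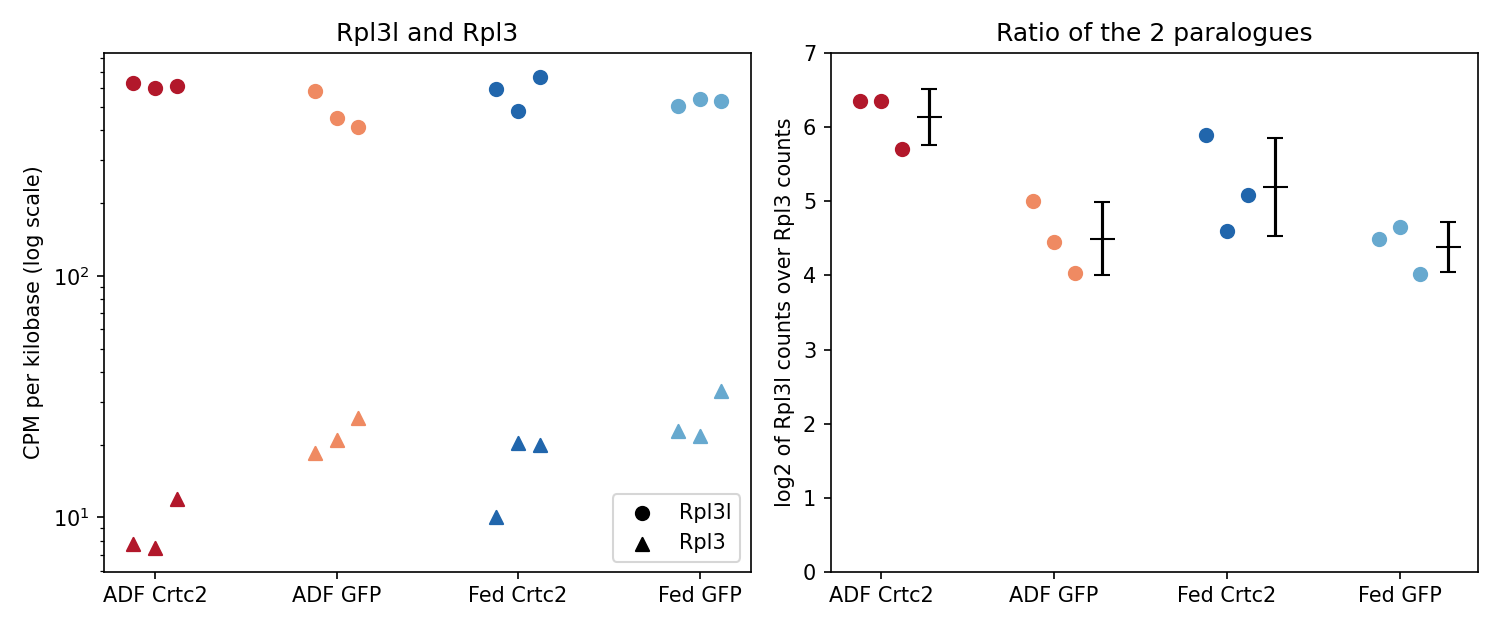
Left, Rpl3l (circles) and Rpl3 (triangles) in CPM per kilobase of transcript on a log scale, 1 point per library. Right, log2 of Rpl3l counts over Rpl3 counts, with the mean and SD of 3 libraries in black; the ADF Crtc2 libraries are at 5.70 to 6.36 and the Fed GFP libraries at 4.01 to 4.65.

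Under ADF, marker sums of several other cell types were, like Rpl3, lower with Crtc2 than with GFP, though those of B cells overlapped. The 8 macrophage markers summed to 177 to 273 CPM in ADF Crtc2 and 512 to 813 CPM in ADF GFP muscle, against 215 to 315 CPM in Fed Crtc2 and 391 to 459.7 CPM in Fed GFP muscle; 4 of the 8 were lower with Crtc2 under ADF, where 0.725% of all genes differed, and 1 to 6 with a library left out (1 without ADF Crtc2 replicate 1 or ADF GFP replicate 3). The 8 markers of T and NK cells summed to 3.59 to 4.83 CPM in ADF Crtc2 and 23.1 to 63.2 CPM in ADF GFP muscle, against 8.75 to 76.1 CPM in Fed Crtc2 and 42.1 to 118 CPM in Fed GFP muscle, with Cd3g at 0 in the ADF Crtc2 libraries. The 5 B cell markers summed to 28.6 to 53.6 CPM in ADF Crtc2 and 51.4 to 192 CPM in ADF GFP muscle, with Cd79a, Cd79b and Ms4a1 at 0 in ADF Crtc2. In fed muscle the B cell markers summed to 18.1 to 138 CPM with Crtc2 and 153 to 184 CPM with GFP. The 4 satellite cell and myoblast markers gave 12.9 to 29.6 CPM in ADF Crtc2 and 54.1 to 57.4 CPM in ADF GFP muscle. In fed muscle they overlapped, at 26.6 to 38.1 CPM with Crtc2 and 34.0 to 79.8 CPM with GFP. Fibroblast markers gave 794 to 1227 CPM in ADF Crtc2 and 1646 to 3471 CPM in ADF GFP muscle. Endothelial markers gave 194 to 247 and 252 to 385 CPM, and markers of dividing cells 0 to 2.49 and 10.6 to 27.7 CPM. Between the diets in GFP muscle, the macrophage sums were higher under ADF, while Rpl3 had a log2 fold change of -0.26 ± 0.34. The part of these cells in the Rpl3 values was not tested.

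The elongation factor pair Eef1a1 and Eef1a2 is split in a like way, Eef1a1 being general and Eef1a2 the form of adult muscle and neurons. Eef1a1 was at 295, 284 and 290.2 CPM in ADF Crtc2 and 453, 557 and 594 CPM in ADF GFP muscle and was lower with Crtc2 (log2 fold change -0.88 ± 0.17, adjusted p = 0.0124, edgeR). Vim, made by fibroblasts, endothelium and leukocytes, was lower in the same comparison (-1.17 ± 0.23, adjusted p = 0.0153).

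Other paralogue pairs differed less. Rps27l, a target of p53, had 100.04, 93.2 and 87.0 CPM in ADF Crtc2 and 53.1, 60.9 and 67.1 CPM in ADF GFP muscle, against 104, 107 and 117 CPM in Fed Crtc2 and 102, 109 and 74.1 CPM in Fed GFP muscle. It was lower after ADF in GFP muscle (-0.65 ± 0.20, adjusted p = 0.0483, edgeR), a call that held in 1 of 12 fits with a library left out. Under ADF it was 0.63 ± 0.20 higher with Crtc2, without overlap, and past the threshold only by DESeq2 (adjusted p = 0.178 by edgeR, 0.021 by DESeq2). Its partner Rps27 had 149.5, 97.8 and 90.2 CPM in ADF Crtc2 and 111, 89.1 and 103 CPM in ADF GFP muscle.

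Rpl22, which also binds RNA outside the ribosome, and Rpl22l1 averaged 158 ± 21.7 and 40.3 ± 8.28 CPM in ADF Crtc2 and 121 ± 7.09 and 28.5 ± 0.463 CPM in ADF GFP muscle, against 188 ± 38.2 and 48.4 ± 6.92 CPM in Fed Crtc2 and 171 ± 66.0 and 33.8 ± 12.5 CPM in Fed GFP muscle (SD, n = 3). Rpl7 and Rpl7l1 averaged 245 ± 13.5 and 40.3 ± 2.56 CPM in ADF Crtc2 and 207 ± 5.69 and 33.1 ± 3.84 CPM in ADF GFP muscle, and none of the 4 genes was past the threshold in a comparison. Rpl39l, known for expression in the testis, had 20 counts, all in ADF Crtc2 replicate 3 (0.711 CPM), against a limit of 3 counts or 0.0867 to 0.124 CPM that a count of 0 allows in a library.

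Among the least abundant tested members were Rpl17, Rpl23a and Rpl24, at 6.94, 8.39 and 13.4 CPM on average, and the pseudogenes Rps4l and Rps3a2, at 3.49 and 4.83 CPM. Rps4l ranged from 0.404 CPM in Fed GFP replicate 3 to 7.12 CPM in Fed GFP replicate 1, so its spread within a group was as wide as over all libraries. Rps4x, the X-linked gene of the same protein, averaged 146 ± 33.5 CPM in ADF Crtc2, 152 ± 2.35 in ADF GFP, 151 ± 56.1 in Fed Crtc2 and 148 ± 21.6 CPM in Fed GFP muscle (SD, n = 3).

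Between vectors no member was past the threshold. Under ADF, 0 of 85 differed between Crtc2 and GFP muscle by edgeR, where 0.725% of all genes did. At an unadjusted p under 0.05, 6 of the 85 differed, against 1809 of all 16007 genes. By DESeq2, 1 was higher and 1 lower (Rps27l and Rpl3), where it called 692 genes in either direction. In fed muscle 0 of 85 differed, 0 at an unadjusted p under 0.05 and 0 by DESeq2, where 0% of all genes did. Under ADF, 18 members had all 3 Crtc2 libraries above all 3 GFP ones, 9.6% of all genes having this, and 2 (Rpl3 and Rps6) had them below, against 11.8% of all genes. The median log2 fold change of Crtc2 over GFP under ADF was 0.14 with TMM scaling, and its sign was the other one with library totals (-0.067) and with the length offset (-0.10). Library totals moved the median of all genes by -0.20 in that comparison and by -0.29 in that of ADF with fed in Crtc2 muscle.

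Among the factors that work with the ribosome, more genes rose than fell after ADF. Of 35 initiation factors, 11 rose and 0 fell after ADF in Crtc2 muscle (median log2 fold change 0.38, against -0.13 for all genes), and 7 rose and 0 fell in GFP muscle (0.36, against -0.01); of all genes, 6.3% and 4.06% were higher. The counts of risers were 6 to 11 in Crtc2 muscle and 2 to 7 in GFP muscle with a library left out. They were at most 7 in Crtc2 muscle without any 1 of the ADF Crtc2 libraries, and at most 4 in GFP muscle without any 1 of the ADF GFP or Fed GFP libraries or ADF Crtc2 replicate 2 or 3. With library totals they were 4 and 2. Eif4g1, the scaffold of the cap-binding complex, was at 977, 891 and 863 CPM in ADF Crtc2 and 863, 733 and 734 CPM in ADF GFP muscle, against 267, 278 and 434 CPM in Fed Crtc2 and 290.4, 447 and 364 CPM in Fed GFP muscle. It rose by 1.48 ± 0.20 (adjusted p = 3.7e-05, edgeR) and 1.08 ± 0.20 (adjusted p = 0.00137). Eif4b, which helps the Eif4a helicase, rose by 1.43 ± 0.17 and 1.11 ± 0.17. With the length offset, 7 and 3 initiation factors rose in Crtc2 and GFP muscle and 0 and 1 (Eif5b) fell.

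Of 8 elongation factors, Eef1a2 and Eef2 rose and Eef1d fell in both vector groups. Eef2, which moves the ribosome along the mRNA and whose own mRNA carries a TOP tract, was at 2026, 1611 and 1644 CPM in ADF Crtc2 and 1965, 1540.0 and 1557 CPM in ADF GFP muscle, against 745, 679 and 812 CPM in Fed Crtc2 and 625, 778 and 645 CPM in Fed GFP muscle. Its rises were 1.24 ± 0.17 (adjusted p = 3.9e-05, edgeR) and 1.31 ± 0.17 (adjusted p = 3.6e-05), with no overlap between diets. Eef1a2 was at 2584, 2249 and 2068 CPM in ADF Crtc2 and 2469, 1721 and 1779 CPM in ADF GFP muscle, against 560.2, 366 and 460.2 CPM in Fed Crtc2 and 545, 439.7 and 447 CPM in Fed GFP muscle. Eef1d, a subunit of the exchange factor, fell by 0.64 ± 0.17 in Crtc2 muscle and by 0.61 ± 0.17 in GFP muscle. Its call was lost in Crtc2 muscle without ADF Crtc2 replicate 1 or 3 or Fed Crtc2 replicate 1, and in GFP muscle without ADF GFP replicate 2 or 3 or Fed GFP replicate 1.

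Among 11 other mRNAs known to carry a TOP tract, Naca and Ybx1 rose and Vim fell in Crtc2 muscle, and Naca and Nap1l1 rose in GFP muscle. With a library left out, 0 to 2 rose in Crtc2 muscle (0 without ADF Crtc2 replicate 1) and 1 to 2 in GFP muscle. Naca, a subunit of the complex that meets new chains at the exit tunnel, and with a muscle form of its own, rose by 0.85 ± 0.19 in Crtc2 muscle (adjusted p = 0.00444, edgeR) and by 1.27 ± 0.19 in GFP muscle (adjusted p = 0.000175).

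Genes for making ribosomes were rarely called. Of 34 assembly and nucleolar genes, 1 rose in Crtc2 muscle (Tsr1, needed for 40S maturation, 1.71 ± 0.53, adjusted p = 0.0405, edgeR) and 1 fell in GFP muscle (Nop10, of the H/ACA particles, -0.86 ± 0.24, adjusted p = 0.0321). Neither was past the threshold with the length offset. The medians were 0.28 and 0.11. Of 19 genes of RNA polymerase I and its factors, 0 were past the threshold in either vector group, with medians of -0.11 and -0.34.

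Of 26 measured genes that control mTORC1 or TOP mRNAs, 7 rose and 1 fell in Crtc2 muscle, and 4 rose and 1 fell in GFP muscle, where 6.3% and 4.06% of all genes were higher. With a library left out, 6 to 8 rose in Crtc2 muscle and 2 to 5 in GFP muscle (2 without ADF GFP replicate 1 or Fed GFP replicate 1 or 3). Larp1, which binds the TOP tract, was at 181, 159.7 and 149.8 CPM in ADF Crtc2 and 172, 136 and 132 CPM in ADF GFP muscle, against 90.9, 70.2 and 107 CPM in Fed Crtc2 and 98.3, 99.3 and 69.3 CPM in Fed GFP muscle. It rose by 0.87 ± 0.21 (adjusted p = 0.00756, edgeR) and 0.72 ± 0.21 (adjusted p = 0.0361), and no ADF library overlapped a fed one. In GFP muscle that call was not kept with the length offset.

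Eif4ebp2, which holds the cap-binding protein Eif4e inactive until mTORC1 phosphorylates it, was at 96.3, 64.0 and 68.0 CPM in ADF Crtc2 and 76.9, 55.3 and 61.2 CPM in ADF GFP muscle, against 0.508, 3.46 and 3.51 CPM in Fed Crtc2 and 1.22, 2.48 and 0.505 CPM in Fed GFP muscle. Ddit4, an inhibitor of mTORC1 induced by stress and glucocorticoids, rose by 2.66 ± 0.40 in Crtc2 muscle (adjusted p = 0.000112, edgeR) and by 1.86 ± 0.39 in GFP muscle (adjusted p = 0.00419). Its relative Ddit4l fell by 1.63 ± 0.20 and by 1.19 ± 0.20. Rragd, a GTPase that brings mTORC1 to the lysosome, rose by 1.10 ± 0.20 and by 0.78 ± 0.20, the GFP call being lost with the length offset (0.55, adjusted p = 0.134, edgeR).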

How the data were processed

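Per the submitters' processing notes, reads were aligned with HISAT2 2.0.5 to GRCm38/mm10, handled with SAMtools 1.7 and counted with featureCounts (Subread 1.6.1); the notes also name DESeq2 1.18.1. The deposited table holds raw read counts per Ensembl gene, labelled with gene symbols, 24232450 to 34610417 per library. The labels name 2 library kits, both stranded, for every library and do not say which library was made with which, so whether kit follows diet or vector was not tested; strand and multi-mapping settings of the counting are not given in the sources used here. 1 row without a gene name was kept among the 22607 genes of the table and was not a member.

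The counts were fitted with edgeR 4.0.16 (R 4.3.3; TMM scaling, filterByExpr, robust quasi-likelihood test) over the 4 groups, with no block, and p-values were adjusted by Benjamini-Hochberg over all 16007 genes tested, threshold 0.05. Alternatives were DESeq2 1.42.0, other scalings and filters, fits of only the groups compared, a replicate block, and each library left out. A length offset was chosen after seeing the data. Scripts were tested on simulated data. Intervals and floors cover counting error only.

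The members and lists were chosen with earlier results of these data known. Named members were paralogue pairs, the largest called changes whose groups do not overlap (up to 6 each way per comparison), the 5 most and 5 least abundant, and Rplp0, Rplp1, Rplp2, Rpsa and Rps6; other named members, such as Rpl13a, Rps9, Rps15a and Rps20, were chosen after their values were seen. From each list, up to 4 called genes per comparison were named, and Larp1 was named outside that rule. Lengths are of GENCODE M21 principal transcripts, and promoters are from RefSeq (GRCm38.p6). Some genes are not reported here by name or in the plots of single genes.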

Additional observations from a re-analysis of the deposited data

How the results depend on the processing

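With library totals in place of TMM, 45 members were lower after ADF in Crtc2 muscle and 34 in GFP muscle. Their medians were -0.75 and -0.63, and those of all 16007 genes were -0.42 and -0.11. Of all genes, 1746 and 1073 were called in either direction in that setting. Among the 7839 genes of at least 10 CPM, 29 and 40 members were lower, and 1892 and 1375 genes were called in either direction. With the length offset, chosen after seeing the data, 8 and 4 were lower and 0 and 2 higher (medians -0.25 and -0.12). The GFP count was 13 with only the groups compared in the fit and 35 by DESeq2. Between vectors under ADF, the median was -0.067 with totals and -0.10 with the length offset; 1 member was lower with only the groups compared, and 1 lower and 1 higher by DESeq2. The interaction's median was -0.16 with totals and -0.18 with the length offset. Over all genes, DESeq2 called 2811 (edgeR 1758) for diet in Crtc2 muscle, 1898 (1140) in GFP muscle, 692 (116) for vector under ADF, 81 (0) for vector in fed muscle and 181 (0) for the interaction; only the groups compared gave 300 for vector under ADF and 7 in fed muscle. From TMM-scaled CPM, the log2 ratios of the share were -0.32 in Crtc2 muscle, -0.42 in GFP muscle and 0.17 between vectors under ADF. Leaving out 1 library gave 7 to 21 and 4 to 21 members lower, medians of -0.58 to -0.30 and -0.61 to -0.44 for diet, 0.04 to 0.19 and -0.04 to 0.21 for vector under ADF and fed, and -0.06 to 0.17 for the interaction. It gave 1129 to 1940, 677 to 1230, 25 to 164, 0 to 18 and 0 to 3 genes in the same order, and log2 share ratios of -0.63 to -0.54, -0.58 to -0.49, -0.06 to 0.02 and -0.01 to 0.08. Deviations from the group means correlated at -0.123 to 0.0946 between libraries with the same replicate number, and at -0.139 to 0.186 between others. These values cannot tell whether the numbers pair libraries, which the labels do not state. With the replicate block, 18 and 18 members were lower (medians -0.48 and -0.54). The causes of these differences were not tested.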
